A study of Homo sapiens with 21 samples.

Results

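The genes described here are 36 human genes of cytosolic tRNA charging and of the amino acid response driven by the transcription factor ATF4. They comprise 16 cytosolic aminoacyl-tRNA synthetases, 10 enzymes of amino acid and one-carbon synthesis, 4 transcription factors, and 6 stress effectors or other targets. The list follows the pathway and was drawn up with earlier results of these data known, and a gene was used where the deposited table held its symbol and 3 or more libraries reached a signal of 10. All 36 were found and met that minimum, among 16383 listed genes and 11579 that were tested. The study sequenced RNA from IMR90, a widely used human fibroblast line from lung, in 21 libraries that form 7 groups of 3. The first group was proliferating cells, neither irradiated nor transfected per the labels. The other 6 groups were made senescent by ionizing radiation, received siRNA at 5 nM on days 4 and 7, and were harvested on day 10. Of these, 2 groups received the non-targeting siRNAs NT3 and NT4 and serve as controls. The remaining groups received siRNA against CCND1, which encodes cyclin D1, against CDK4, against CDK6, or against CDK4 and CDK6 together (dual knockdown). The labels name 1 cell line and do not say whether the libraries of a group came from separate cultures, so the p-values below measure only the spread between these libraries, which may be technical. Irradiation and transfection cannot be told apart in any comparison with proliferating cells.

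Aminoacyl-tRNA synthetases attach each amino acid to its tRNA before translation. When uncharged tRNA, misfolded protein or other stress leads to phosphorylation of eIF2 alpha, general translation falls while ATF4 mRNA is translated more. ATF4, often paired with a C/EBP family protein, then raises transcription of genes for amino acid uptake and synthesis, for tRNA charging, and for stress effectors such as DDIT3 (CHOP), TRIB3 and CHAC1. Much of the control of ATF4 is therefore at translation, which mRNA abundance does not measure. In fibroblasts the same enzymes supply serine, glycine, proline and one-carbon units for growth and for collagen.

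The DNA that ATF4 and C/EBP proteins share is a composite element, searched here as TGATGNAA on both strands of promoter windows that run from 250 bases before to 50 bases after a RefSeq transcript start (GRCh38.p14). Of the 36 genes, 30 had a window, and 10 of these (33.3%) held a match, against 4.46% of 27305 genes and 3.62% of 35116 windows in the whole table. The members had 45 windows, of which 10 (22.2%) held a match. The list was chosen from the ATF4 pathway, and this element is one that ATF4 binds, so the higher share among members is not an independent result. The 10 sites are shown as a sequence feature that these 10 genes have in common, while 20 members with a window held no match. Capitals mark the motif, and each site is printed 5′ to 3′ on the strand on which the motif reads as spelled.
AARS1 (chr16:70289675-70289704, plus strand): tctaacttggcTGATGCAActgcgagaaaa
CARS1 (chr11:3057407-3057436, plus strand): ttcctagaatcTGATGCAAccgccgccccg
GARS1 (chr7:30594834-30594863, minus strand): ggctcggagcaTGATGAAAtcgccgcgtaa
IARS1 (chr9:92293692-92293721, plus strand): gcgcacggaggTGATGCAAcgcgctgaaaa
MARS1 (chr12:57488053-57488082, minus strand): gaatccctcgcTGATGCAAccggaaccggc
NARS1 (chr18:57621804-57621833, minus strand): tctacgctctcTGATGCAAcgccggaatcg
TARS1 (chr5:33440956-33440985, minus strand): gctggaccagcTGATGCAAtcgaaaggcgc
ASNS (chr7:97872458-97872487, minus strand): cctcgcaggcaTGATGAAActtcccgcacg
CEBPG (chr19:33374060-33374089, plus strand): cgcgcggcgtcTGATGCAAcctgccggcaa
CHAC1 (chr15:40953251-40953280, minus strand): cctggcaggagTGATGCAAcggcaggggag

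Synthetases made up 7 of the 10 genes with a match, out of 13 synthetases with a window. The open position of the motif was C in 8 sites and A in 2 sites, those of GARS1 and ASNS. In 7 genes the motif began within 50 bases of the transcript start, read along the strand of the gene. The farthest was that of CHAC1, whose most upstream base on that strand lay 209 bases before the start. A match is a description of letters in a window and not a measured binding site. LARS1, VARS1, YARS1, PSPH, SHMT2 and PYCR1 had no window in the table.

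**Figure D1:**
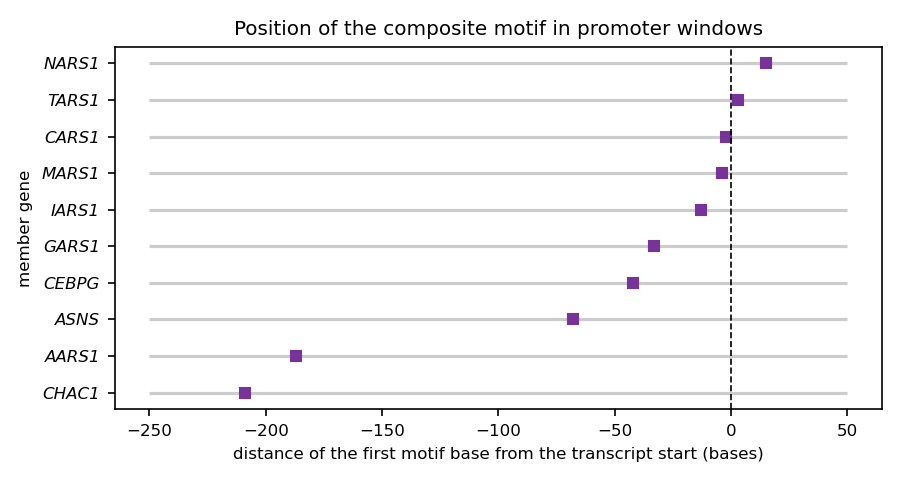
Position of the composite motif in the promoter windows of the 10 genes with a match. The x axis gives the distance in bases from the transcript start (dashed line) to the motif base farthest upstream on the gene's strand. Where a site is printed on the other strand, this is the last base of the motif as printed. Grey lines span each window, and squares mark the motif, 7 of which lie within 50 bases of the start.

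Each library held between 12892442 and 21822152 reads over the genes listed. In the knockdown of each gene its own mRNA was reduced, to 12.1% of controls for CCND1, 8.75% for CDK4 and 16.6% for CDK6, and to 9.5% (CDK4) and 20.7% (CDK6) in the dual knockdown. All 8 fibroblast markers were expressed, at a summed signal of 448900 to 860200 per library, and 6 of the 8 were lower in senescent controls while 6 were higher in the dual knockdown. Endothelial markers summed to 7.09 to 48.2, epithelial markers to 1581 to 2678, and the immune sum of 654 to 1604 was almost all CD68, with PTPRC at 0 to 8.90. Of the epithelial markers, the keratins KRT18 (826 to 1995), KRT8 (262 to 412) and KRT19 (144 to 563) made up most of the sum, and EPCAM was at 12.2 to 47.8 and CDH1 at 0 to 11.04. The part of these markers in the results was not tested. NT3 replicate 3, the library with the fewest reads, stood apart from the others of its group. It differed from them by 37.8 and 59.1 times the counting noise (chi-square per degree of freedom), and every other pair within a group by 7.66 or less. Without it, every member call of the comparisons with senescence and of the 4 knockdowns was kept, and the members called were 34 with senescence, 14 with CCND1, 10 with CDK4, 24 with CDK6 and 23 with dual knockdown. Calls among all tested genes rose as well, from 7945 to 8451 with senescence, 3594 to 4158 with CCND1 and 1854 to 2694 with CDK4. With CDK6 they rose from 4853 to 5431 and with dual knockdown from 5094 to 5943. Of the genes described, VARS1 had 0 to 127 reads with no pattern by group, and CARS1 had 45 to 156 reads, so their values are weak. CBS has a near-identical copy, and reads could be split between them. DDIT3 shares 27.2% of its exon bases with MARS1 on the opposite strand, ATF5 shares 19.5% with NUP62, MTHFD2 shares 11.6% with SLC4A5, and PYCR1 shares 14.1% with MYADML2 on the same strand. Whether reads were counted by strand is not given in the sources used here, so the values of these genes are uncertain.

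Per kilobase of exon, the members spanned a wide range of signal in the senescent controls. STC2, a secreted glycoprotein hormone, had the highest level at 3298 per kb, followed by ATF4 at 1598 per kb, the seryl-tRNA synthetase SARS1 at 923 and the glutamyl-prolyl-tRNA synthetase EPRS1 at 896. At the other end were CBS at 9.17, CARS1 at 6.18 and VARS1 at 2.39 per kb. The VARS1 level rests on NT4 replicate 2, with a signal of 74.9, while the other control libraries were at 0 to 4.85. Whether signal this low reflects low expression was not tested. Exon lengths came from GENCODE 44 as the union of exons over all transcripts of a gene, and may differ from those the authors counted. The order depends on these lengths. IARS1 and GARS1, with 22418 and 17366 exon bases, had more signal in the controls (6454 and 5217) than SARS1 (3553). Per kb they were at only 288 and 300.

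Senescent controls were compared with proliferating cells, and each knockdown was compared with the mean of both controls. In limma with Benjamini-Hochberg adjustment over all tested genes, at a threshold of 0.05, 27 of the 36 members were lower and 4 were higher in senescent controls. That is 75% lower, beside 36.1% lower and 32.6% higher of all tested genes. The median log2 fold change was -0.50 over members and -0.03 over all tested genes. When all libraries were centred on their median gene, which shifts this comparison by 0.11 on the log2 scale, 23 members were lower and 5 higher, beside 29% and 39.8% of all genes. A call with an absolute log2 fold change over 1 was reached by 8 members (22.2%), beside 18.5% of all genes. The senescent control libraries lay wholly above or below the proliferating ones for 29 members, beside 54.1% of all genes. Fold changes here are on the scale of log2(signal + 1), which understates the change of low genes. Below, a value in brackets after a gene or a comparison is its log2 fold change, with its standard error (SE) and limma's adjusted p, and the values listed for libraries are the deposited signal.

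Among the knockdowns, CDK6 knockdown and dual knockdown called the most members and CDK4 knockdown the fewest. CDK6 knockdown lowered 18 members and raised 2, beside 20.8% lower and 21.1% higher (41.9% called) of all tested genes. Dual knockdown lowered 15 and raised 5, beside 21.5% and 22.5%. CCND1 knockdown lowered 6 and raised 5, beside 14.4% and 16.7%, so its total of 11 (30.6%) was close to the 31% called among all genes. CDK4 knockdown lowered 9 and raised 0, beside 7.55% and 8.46%. At an unadjusted p under 0.05, 2 members were higher in CDK4 knockdown, and edgeR and DESeq2 on the recovered reads called 0 higher. The total of 9 for CDK4 became 14 against NT3 alone and 5 without CDK4 replicate 2. The members' median log2 fold change was -0.02 for CCND1, -0.07 for CDK4, -0.17 for CDK6 and -0.07 for dual knockdown, and those of all genes lay between -0.01 and 0.00. These 4 comparisons share their 6 control libraries, so similar values in them are not independent of each other. Libraries of a knockdown lay wholly to one side of the controls for 9 members with CCND1, 7 with CDK4, 16 with CDK6 and 15 with dual knockdown, beside 21.2%, 11.2%, 28.6% and 28.3% of all genes. Of the 36 members, CTH and YARS1 were called lower in all 4 knockdowns. The share of all tested genes called lower in all 4 was not computed.

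**Figure D2:**
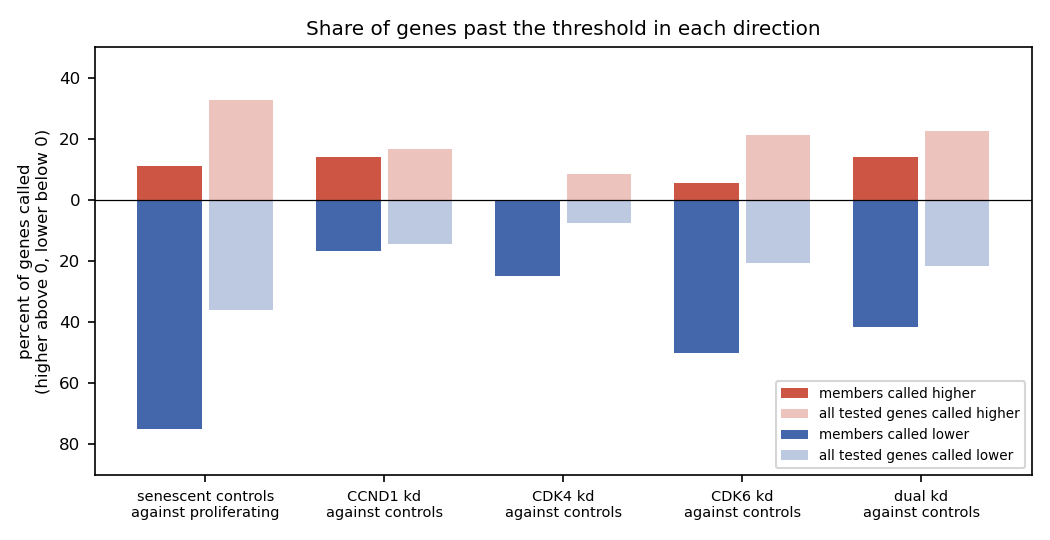
Share of the 36 members and of all 11579 tested genes called higher or lower in each comparison, in percent on the y axis. In senescent controls against proliferating cells 75% of members and 36.1% of all genes were lower, and in CDK6 knockdown 50% and 20.8%.

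**Figure D3:**
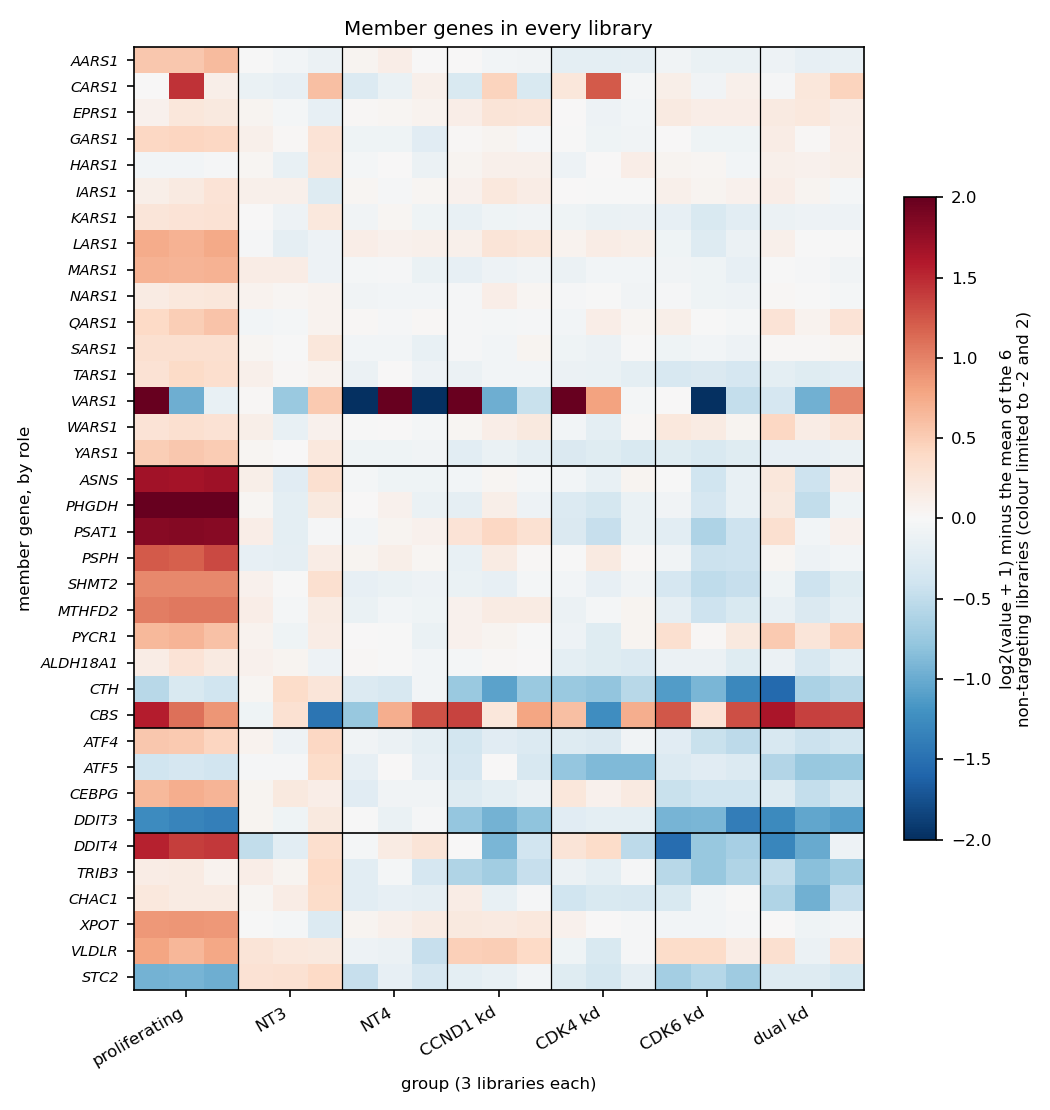
Log2 difference of each member (rows, ordered by role) from the mean of the 6 control libraries in each of the 21 libraries (columns), with colours limited to the range from -2 to 2. The enzymes PHGDH, PSAT1 and ASNS stand highest in the 3 proliferating libraries, while DDIT3 stands low there and in the CCND1, CDK6 and dual knockdown libraries.

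Enzymes of serine, asparagine and one-carbon synthesis fell with senescence, and PHGDH, PSAT1 and ASNS had the largest falls of all called members. Of the 10 enzymes, 9 were lower (90%, beside 36.1% of all tested genes) and 1 was higher in senescent controls. Their median log2 fold change was -1.11. PHGDH, PSAT1 and PSPH, which make serine in that order from a glycolytic intermediate, all fell, and so did the mitochondrial one-carbon enzymes SHMT2 and MTHFD2 and the asparagine synthetase ASNS. PHGDH was at 3602, 3497 and 3708 in proliferating cells, against 686, 582 and 768 in NT3 and 672, 708 and 611 in NT4. Every senescent control library was below every proliferating library, and the controls held 18.6% of the proliferating signal. Its log2 fold change was -2.43 (SE 0.11, adjusted p = 2.58e-14). PSAT1 fell from 3127, 3187 and 3148 to 976, 780.4 and 871 in NT3 and 858, 924 and 939 in NT4, a log2 fold change of -1.83 (SE 0.0898, adjusted p = 8.71e-14). ASNS fell from 2209, 2180.4 and 2238 to 745, 588 and 865 in NT3 and 669, 653 and 652 in NT4, a log2 fold change of -1.68 (SE 0.12, adjusted p = 3.23e-11). For PSAT1 and ASNS, too, the controls lay wholly below the proliferating libraries. The log2 fold change was -1.25 for PSPH, -1.04 for MTHFD2 and -0.96 for SHMT2, all with libraries that did not overlap. The proline enzymes fell less, with -0.64 for PYCR1 and -0.20 for ALDH18A1, and the call for ALDH18A1 was lost when libraries were centred on their median gene (adjusted p = 0.147).

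Of the 10 enzymes, 1 rose and 1 fell with CCND1 (20% called, beside 31% of all genes) and 3 fell with CDK4 (30%, beside 16%). With CDK6 6 fell (60%, beside 41.9% of all genes called), and with dual knockdown 2 rose and 4 fell (60%, beside 44%). With CDK6 limma called 0 enzymes higher, while edgeR and DESeq2 on the recovered reads each called 1. Calls among all tested genes with CDK6 were 4853 in limma, 4922 in edgeR and 5023 in DESeq2. PHGDH and ASNS had no call in any of these 4 comparisons. PHGDH was at 591, 721 and 620.3 in CCND1, 550.2, 524 and 612 in CDK4, 638, 532 and 604 in CDK6 and 762, 477 and 633 in dual knockdown. Each group overlapped the controls, and in CDK4 knockdown 2 of the 3 libraries were below the lowest control. ASNS was at 661, 706 and 673 in CCND1, 661, 621 and 714 in CDK4, 687, 523 and 622 in CDK6 and 811, 518 and 758 in dual knockdown, and all 4 groups overlapped the controls. The adjusted p-values were 0.135 to 0.728 for PHGDH and 0.215 to 0.928 for ASNS, which does not show that the groups were alike.

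PSAT1 rose in one knockdown and fell in others. It was at 1076, 1189 and 1100.2 in CCND1 knockdown, above all 6 control libraries, with a log2 fold change of 0.33 (SE 0.0898, adjusted p = 0.00737). It was at 764, 579 and 666 in CDK6 knockdown, below all 6 control libraries, with -0.42 (SE 0.0898, adjusted p = 0.000774). In CDK4 knockdown it was at 725, 648 and 813 (-0.29, SE 0.0898, adjusted p = 0.0292), a weak call that was lost in 7 of 20 alternatives, among them against NT3 alone and without NT3 replicate 1, NT4 replicates 2 or 3, or CDK4 replicates 1 or 2 (adjusted p up to 0.219). In dual knockdown it was at 1108, 859 and 943, which overlaps the controls (0.12, SE 0.0898, adjusted p = 0.304). The CCND1 call was also lost without CCND1 replicate 2 (adjusted p = 0.0526).

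SHMT2 and MTHFD2 fell with CDK6 knockdown, with log2 fold changes of -0.44 (SE 0.0675, adjusted p = 2.35e-05) and -0.29 (SE 0.0578, adjusted p = 0.000326), and both calls held against NT3 alone and NT4 alone. Smaller falls in dual knockdown, -0.25 for SHMT2 and -0.21 for MTHFD2, were lost against NT4 alone (adjusted p = 0.264 and 0.173), and that of SHMT2 was also lost without dual replicate 2. PYCR1, which makes proline in the mitochondrion, rose in dual knockdown by 0.42 (SE 0.0761, adjusted p = 0.00013) and had no call in the others (with CDK6, 0.21 and adjusted p = 0.0184 without NT3 replicate 3), while ALDH18A1, which acts earlier in proline synthesis, fell with a log2 fold change of -0.21 (SE 0.0534, adjusted p = 0.00264). Both calls held against each control. ALDH18A1 also fell in CDK4 knockdown (-0.24, SE 0.0534, adjusted p = 0.0039) and, at -0.16, in CDK6 knockdown, a call that was lost against NT4 alone and without CDK6 replicate 3 (adjusted p up to 0.139).

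CTH and CBS, the 2 enzymes of transsulfuration, which turn homocysteine into cysteine, are low genes in these cells and moved in opposite directions with senescence and in the dual knockdown. CTH was at 69, 83 and 77.1 in proliferating cells, 104.8, 132 and 121 in NT3 and 84.6, 81.8 and 99.1 in NT4. Its rise in senescent controls (0.42, SE 0.18, adjusted p = 0.0392) was lost in 6 of 18 alternatives, among them against NT4 alone and without proliferating replicates 1 or 3, NT3 replicate 2 or NT4 replicate 3 (adjusted p up to 0.385). In the knockdowns CTH was at 60.6, 48 and 60.9 for CCND1, 60.6, 58.9 and 69.7 for CDK4, 46.8, 54 and 41.2 for CDK6 and 34.2, 65.5 and 69.1 for dual. All 12 of these libraries were below all 6 control libraries. The log2 fold changes were -0.85 (SE 0.18, adjusted p = 0.000899) for CCND1, -0.69 (SE 0.18, adjusted p = 0.0092) for CDK4, -1.10 (SE 0.18, adjusted p = 3.5e-05) for CDK6 and -0.92 (SE 0.18, adjusted p = 0.000246) for dual knockdown. The CDK4 call was lost against NT4 alone and without CDK4 replicate 2 (adjusted p up to 0.145), while the other 3 were kept in every alternative.

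CBS was at 155, 111.7 and 96.5 in proliferating cells, 48.8, 63.9 and 18.2 in NT3 and 30.1, 86.6 and 126 in NT4, so 1 control library reached the proliferating range. Its fall with senescence (-1.19, SE 0.44, adjusted p = 0.0222) was lost against NT4 alone, without proliferating replicate 1, without NT4 replicate 1 and in DESeq2 (adjusted p up to 0.195). In dual knockdown CBS was at 162, 135 and 133, above all 6 control libraries, with 1.45 (SE 0.44, adjusted p = 0.0112), and this call was lost against NT4 alone (adjusted p = 0.119). In the other knockdowns it was at 133, 60.8 and 90.3 for CCND1, 78.6, 21.3 and 86.4 for CDK4 and 124, 62.4 and 128 for CDK6, all overlapping the controls and without a call.

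The tRNA synthetases had a smaller median change with senescence than the enzymes. Of the 16, 13 were lower (81.2%, beside 36.1% of all tested genes) and the other 3 had no call. Their median log2 fold change over all 16 was -0.38. Among synthetases with a call the leucyl enzyme LARS1 fell most, with -0.73 (SE 0.0515, adjusted p = 3.71e-11), followed by the methionyl enzyme MARS1 (-0.69, SE 0.0515, adjusted p = 9.67e-11) and the alanyl enzyme AARS1 (-0.57, SE 0.0436, adjusted p = 1.5e-10). The smallest falls with a call were those of EPRS1 (-0.17), IARS1 (-0.19) and NARS1 (-0.20), which charge glutamate and proline, isoleucine, and asparagine. All 3 calls were lost with median centring, that of EPRS1 also against NT4 alone and that of IARS1 without proliferating replicate 3 (adjusted p up to 0.344, 0.269 and 0.0691 in this order). CARS1, HARS1 and VARS1 had no call, with log2 fold changes of -0.52, 0.04 and -1.22. XPOT, the exportin that carries tRNA out of the nucleus, fell with them, at -0.87 (SE 0.0514, adjusted p = 1.72e-12). In the knockdowns the share of synthetases called was below or near that of all genes. With CCND1 knockdown 2 rose and 1 fell (18.8% called, beside 31% of all genes), and with CDK4 3 fell (18.8%, beside 16%). With CDK6 1 rose and 5 fell (37.5%, beside 41.9%), and with dual knockdown 3 rose and 3 fell (37.5%, beside 44%). The median log2 fold changes were 0.00, -0.05, -0.08 and 0.03.

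YARS1, the tyrosyl enzyme, fell in every knockdown. It was at 3553, 3688 and 3593 in proliferating cells, 2608, 2536 and 2919 in NT3 and 2383, 2391 and 2399.7 in NT4. The knockdown libraries were at 2178, 2307 and 2210.3 for CCND1, 2079.8, 2151 and 2053 for CDK4, 2139, 2052 and 2137 for CDK6 and 2258, 2270.1 and 2317 for dual, all below the lowest control. The log2 fold changes were -0.18 (SE 0.0448, adjusted p = 0.00378) for CCND1, -0.27 (SE 0.0448, adjusted p = 0.000195) for CDK4, -0.26 (SE 0.0448, adjusted p = 6.85e-05) for CDK6 and -0.15 (SE 0.0448, adjusted p = 0.00946) for dual. Against NT4 alone the CCND1 and dual calls were lost (adjusted p = 0.191 and 0.328).

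TARS1, the threonyl enzyme, was at 3629, 3895 and 3741 in proliferating cells, 3188, 3024 and 3129 in NT3 and 2739, 2994 and 2783 in NT4. It was at 2381, 2436 and 2354 in CDK6 knockdown and 2584, 2520.2 and 2554 in dual knockdown, both below all controls, with -0.31 (SE 0.0424, adjusted p = 4.33e-06) and -0.22 (SE 0.0424, adjusted p = 0.00025). In CDK4 knockdown it was at 2753, 2721 and 2607 (-0.14, SE 0.0424, adjusted p = 0.0253), a call lost against NT4 alone and without NT4 replicate 2 or CDK4 replicates 2 or 3 (adjusted p up to 0.389). In CCND1 knockdown it was at 2729.9, 2855 and 2874, with no call (adjusted p = 0.185). The lysyl enzyme KARS1 fell with CDK6 knockdown (-0.23, SE 0.0545, adjusted p = 0.0019). AARS1 fell with CDK4 (-0.19), CDK6 (-0.11) and dual knockdown (-0.14), and these 3 calls were lost against NT3 alone (adjusted p up to 0.0798, 0.445 and 0.238). That with CDK6 was also lost without NT3 replicates 1 or 2, NT4 replicates 1 or 2, or CDK6 replicates 2 or 3, and that with dual knockdown without dual replicates 2 or 3. A few synthetases rose instead. The glutaminyl enzyme QARS1 and the tryptophanyl enzyme WARS1 rose in dual knockdown (log2 fold changes of 0.20, SE 0.0561, adjusted p = 0.00536, and 0.27, SE 0.0641, adjusted p = 0.0019), calls that held against each control. EPRS1 rose with CCND1 knockdown (0.21, SE 0.0499, adjusted p = 0.00259), CDK6 knockdown (0.15) and dual knockdown (0.18), and against NT4 alone the last 2 calls were lost (adjusted p up to 0.212 and equal to 0.0758). The CDK6 call of EPRS1 was also lost without CDK6 replicates 1 or 3.

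In senescent controls 8 of the 10 genes with the composite motif were lower and the other 2 had no call (median log2 fold change -0.47), and of the 20 genes whose windows held no match 14 were lower and 4 higher (median -0.31). Of all tested genes, 36.1% were lower and 32.6% higher in that comparison. The difference between members with and without a match was not tested.

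Of the 4 transcription factors, 2 rose and 2 fell with senescence, beside 32.6% higher and 36.1% lower of all tested genes. With CDK6 and dual knockdown all 4 were lower, with CCND1 knockdown 3 and with CDK4 knockdown 1. The shares of all tested genes called lower were 20.8% with CDK6, 21.5% with dual, 14.4% with CCND1 and 7.55% with CDK4 knockdown. ATF4 mRNA itself was lower in senescent controls than in proliferating cells. It was at 5981, 5937 and 5587 in proliferating cells, 4351, 3871 and 5501 in NT3 and 3921, 3815 and 3594 in NT4. All 6 control libraries were lower than the proliferating ones, and NT3 replicate 3 came nearest to them. The log2 fold change was -0.50 (SE 0.0833, adjusted p = 1.86e-05). In the knockdowns ATF4 was at 3216, 3528 and 3432 for CCND1, 3464, 3367 and 3953 for CDK4, 3549, 3025 and 2868 for CDK6 and 3324, 3077 and 3195 for dual. CCND1, CDK6 and dual knockdown libraries were all below the lowest control, and CDK4 libraries overlapped the controls. The log2 fold changes were -0.29 (SE 0.0833, adjusted p = 0.0124) for CCND1, -0.20 (SE 0.0833, adjusted p = 0.104) for CDK4, -0.40 (SE 0.0833, adjusted p = 0.000596) for CDK6 and -0.37 (SE 0.0833, adjusted p = 0.00109) for dual knockdown. Against NT4 alone the CCND1 and dual calls were lost (adjusted p = 0.285 and 0.0566), and the CCND1 call was also lost without CCND1 replicate 1.

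CEBPG, a C/EBP family partner of ATF4, was at 894, 948 and 909.7 in proliferating cells, 594, 651 and 624 in NT3 and 485, 543 and 542 in NT4, and fell with senescence, at -0.68 (SE 0.0616, adjusted p = 2.08e-09). It was at 417, 430.5 and 431 in CDK6 knockdown and 479, 412 and 444 in dual knockdown, below all controls (log2 fold changes of -0.42, SE 0.0616, adjusted p = 1.3e-05, and -0.36, SE 0.0616, adjusted p = 6.77e-05). In CDK4 knockdown it was at 669, 603 and 646, with no call (log2 fold change 0.16, adjusted p = 0.0791). In CCND1 knockdown it was at 479, 496 and 523, with -0.19 (SE 0.0616, adjusted p = 0.0215), a call lost against NT4 alone and without CCND1 replicates 1 or 2 (adjusted p up to 0.567).

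ATF5, a related factor that is also controlled by translation, followed a different order. It was at 486, 509.7 and 494 in proliferating cells, 633, 633 and 828 in NT3 and 575, 647 and 577 in NT4, and rose with senescence by 0.37 (SE 0.0857, adjusted p = 0.00059). It was lowest in CDK4 knockdown, at 377, 348 and 350.4, and in dual knockdown, at 428, 382 and 385, both below all controls. The log2 fold changes were -0.84 (SE 0.0857, adjusted p = 5.63e-07) for CDK4 and -0.69 (SE 0.0857, adjusted p = 1.1e-06) for dual. CDK6 knockdown, at 532, 548 and 534, gave -0.26 (SE 0.0857, adjusted p = 0.0191), lost against NT4 alone and without CDK6 replicates 1 or 3 (adjusted p up to 0.259), and CCND1 knockdown, at 512, 647 and 516, gave no call (adjusted p = 0.0619).

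DDIT3, which encodes CHOP, a C/EBP family factor linked to cell death under stress, had the largest rise with senescence among the members. It was at 301, 288 and 277 in proliferating cells, 744, 680.4 and 823 in NT3 and 712, 657 and 708 in NT4, with no overlap and a log2 fold change of 1.31 (SE 0.0895, adjusted p = 2.19e-11). In the knockdowns it was at 421, 373 and 411 for CCND1, 617, 625 and 626 for CDK4, 376, 383 and 275 for CDK6 and 298, 349 and 335 for dual. All 12 libraries were below the lowest control, and 1 CDK6 library was below every proliferating library. The log2 fold changes were -0.84 (SE 0.0895, adjusted p = 5.08e-07) for CCND1, -1.07 (SE 0.0895, adjusted p = 5.51e-09) for CDK6 and -1.13 (SE 0.0895, adjusted p = 1.43e-09) for dual. The CDK4 value of -0.21 (SE 0.0895, adjusted p = 0.13) was not a call. The 3 calls were kept in every alternative. MARS1, which overlaps DDIT3, had log2 fold changes of -0.69 with senescence, -0.11 with CCND1, -0.11 with CDK6 and -0.03 with dual knockdown, the last 3 without a call. Without NT3 replicate 3, MARS1 was a call with CCND1 (-0.15, adjusted p = 0.00283) and CDK6 (-0.15, adjusted p = 0.00218).

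**Figure D4:**
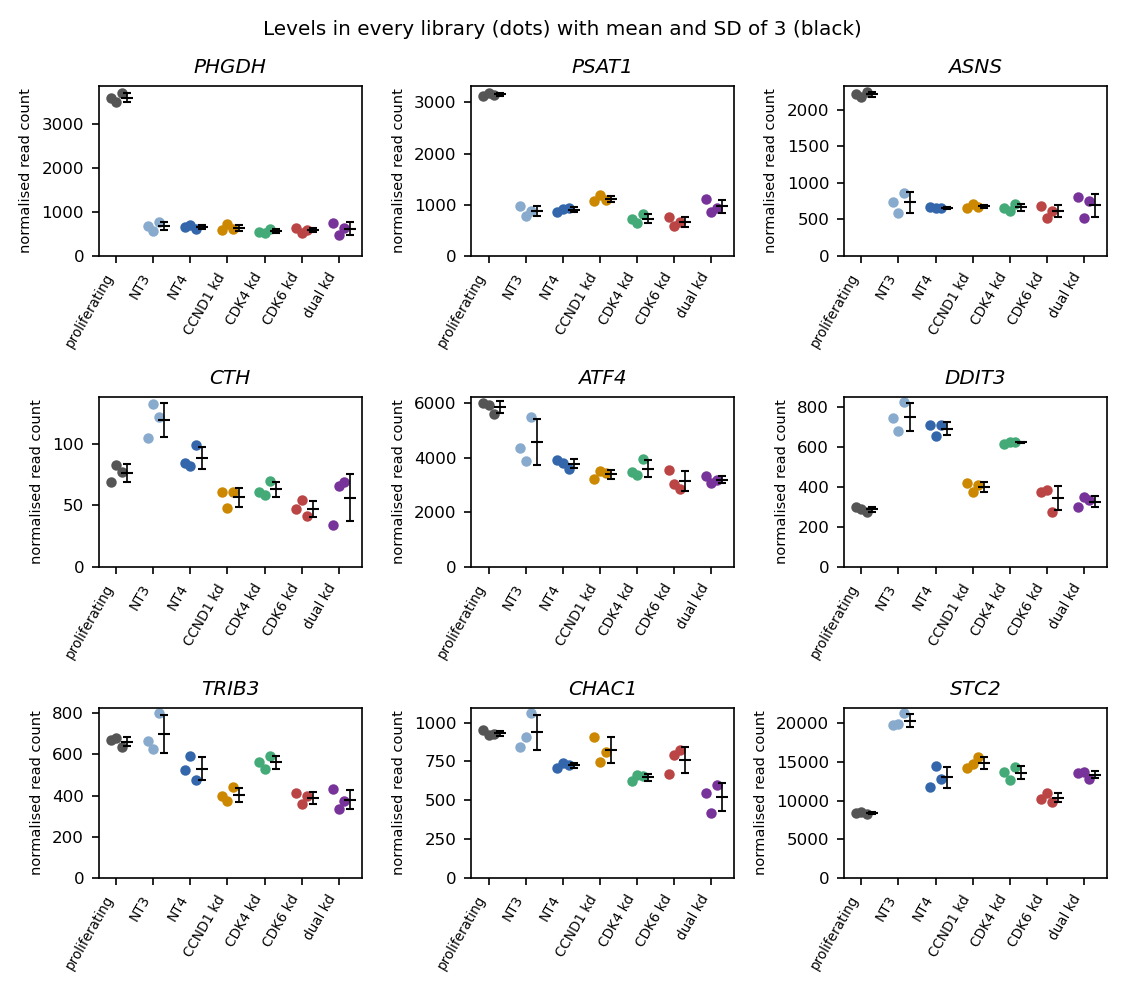
Deposited signal of PHGDH, PSAT1, ASNS, CTH, ATF4, DDIT3, TRIB3, CHAC1 and STC2 in each of the 21 libraries (points) by group on the x axis, with the group mean and SD. DDIT3 lies at 657 to 823 in the controls and at 275 to 421 in CCND1, CDK6 and dual knockdown, while PHGDH and ASNS are high in proliferating cells only.

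Of the 6 stress effectors and other targets, 3 fell and 1 rose with senescence, and 4 fell in dual knockdown (66.7% called in each, beside 68.6% and 44% of all genes). TRIB3 and CHAC1 had no call for senescence with all libraries and fell in knockdowns. Without NT3 replicate 3 both were lower with senescence (TRIB3 -0.18, adjusted p = 0.0474, and CHAC1 -0.23, adjusted p = 0.0188). For both genes every NT4 library was below every proliferating library, and the NT3 libraries lay on both sides of them. TRIB3, a pseudokinase that dampens ATF4 and CHOP activity, was at 669, 680.0 and 638 in proliferating cells, 664, 627 and 802 in NT3 and 524, 592 and 478 in NT4. The controls spanned the proliferating libraries (log2 fold change -0.13, SE 0.0898, adjusted p = 0.215). It was at 398, 372 and 441 in CCND1, 412, 358 and 399 in CDK6 and 430.4, 337 and 372 in dual knockdown, all below the lowest control. The log2 fold changes were -0.59 (SE 0.0898, adjusted p = 4.06e-05) for CCND1, -0.64 (SE 0.0898, adjusted p = 7.4e-06) for CDK6 and -0.68 (SE 0.0898, adjusted p = 2.68e-06) for dual, and each call was kept in every alternative. In CDK4 knockdown it was at 562, 529.8 and 594, within the range of the controls (-0.11, SE 0.0898, adjusted p = 0.456).

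CHAC1, which degrades glutathione, was at 949, 918 and 926 in proliferating cells, 843, 907 and 1062 in NT3 and 709, 738 and 728 in NT4, so the controls lay on both sides of the proliferating libraries (-0.18, SE 0.0936, adjusted p = 0.0952). It was lowest in dual knockdown, at 544, 420.4 and 596, below all controls, with -0.68 (SE 0.0936, adjusted p = 4.95e-06), a call kept in every alternative. CDK4 knockdown, at 621, 665 and 659.5, also lay below all controls (-0.34, SE 0.0936, adjusted p = 0.015), but this call was lost against NT4 alone and without CDK4 replicate 1 (adjusted p up to 0.406). CCND1 knockdown at 910.3, 744 and 812 and CDK6 knockdown at 667, 789 and 822 overlapped the controls, with no call (log2 fold changes -0.01 and -0.12).

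DDIT4, an inhibitor of mTORC1 signalling also known as REDD1, fell with senescence. It was at 1582, 1416 and 1452 in proliferating cells, 386, 468 and 686 in NT3 and 529, 610.2 and 647 in NT4, with no overlap and -1.44 (SE 0.25, adjusted p = 2.73e-05). In CDK6 knockdown it was at 188, 321 and 344, below all controls, with -0.98 (SE 0.25, adjusted p = 0.0033). In dual knockdown it was at 219.6, 269.7 and 505, with 2 libraries below and 1 within the controls (-0.81, SE 0.25, adjusted p = 0.0121), and this call was lost against NT3 alone and without dual replicates 1 or 2 (adjusted p up to 0.123). CCND1 knockdown at 549.8, 289 and 415 and CDK4 knockdown at 648, 703 and 378 had no call.

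STC2 and VLDLR, a lipoprotein receptor, differed strongly between the 2 controls. STC2 was at 8411, 8485 and 8283 in proliferating cells, 19799, 19966 and 21333 in NT3 and 11822, 14432 and 12809 in NT4. Both controls were above the proliferating libraries (0.95, SE 0.0587, adjusted p = 3.89e-12), and no NT4 library reached NT3. In CDK6 knockdown STC2 was at 10193, 10998 and 9877, below both controls, with -0.65 (SE 0.0587, adjusted p = 1.74e-08). In CCND1 knockdown at 14212, 14698 and 15688, CDK4 knockdown at 13757, 12686 and 14330.3 and dual knockdown at 13563, 13659 and 12806 it lay below every NT3 library and overlapped NT4. Against NT4 alone the log2 fold changes of CCND1 (0.19), CDK4 (0.065) and dual knockdown (0.039) turned positive, with no call, so their values of -0.13, -0.26 and -0.29 against the mean of both controls rest on NT3. The CDK4 call was also lost without CDK4 replicate 2. VLDLR was at 585, 536 and 579 in proliferating cells, 406, 394 and 388 in NT3 and 316, 313 and 246 in NT4, a log2 fold change of -0.74 (SE 0.0971, adjusted p = 6.93e-07). In CCND1 knockdown it was at 473, 479 and 449, above all controls (0.46, SE 0.0971, adjusted p = 0.00106), and in CDK6 knockdown at 439, 435 and 376 (0.29, SE 0.0971, adjusted p = 0.0188). Against NT3 alone both calls were lost (adjusted p = 0.1 and 0.637), and that of CDK6 was also lost without CDK6 replicates 1 or 2. VLDLR was at 319, 274 and 332 in CDK4 and 425, 311 and 408 in dual knockdown, with no call.

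The controls themselves were compared because both are meant to leave the cells unchanged. In NT4 against NT3, 12 members were lower and 2 higher, beside 13.1% lower and 14.7% higher (27.8% called) of all tested genes. STC2 (-0.65, SE 0.0678, adjusted p = 3.67e-07), VLDLR (-0.45, SE 0.11, adjusted p = 0.00501), TRIB3 (-0.39, SE 0.10, adjusted p = 0.00767) and CHAC1 (-0.36, SE 0.11, adjusted p = 0.0156) had the largest differences among called members, all lower in NT4, while the low genes CBS (0.83) and CTH (-0.43) had no call. In a fit on the 6 control libraries alone 1 member kept a call, that of STC2. The 14 calls became 9 without NT3 replicate 3, 6 without NT4 replicate 1 and 7 without NT4 replicate 3. Calls among all tested genes went from 3216 to 2859, 2254 and 2379 in the same order. Without NT4 replicate 3 the TRIB3 call was lost, and without NT3 replicate 3 or NT4 replicate 1 that of CHAC1 (adjusted p up to 0.0948 and 0.0665). A call against each control separately, in the same direction, was reached by 5 members in CCND1, 3 in CDK4, 13 in CDK6 and 11 in dual knockdown. Such calls were not counted over all tested genes, so these numbers have no share beside them. For CCND1 the members were EPRS1 and PSAT1 (higher) and CTH, DDIT3 and TRIB3 (lower). For CDK4 they were YARS1, ALDH18A1 and ATF5, all lower. For CDK6 they were KARS1, TARS1, YARS1, PSAT1, SHMT2, MTHFD2, CTH, ATF4, CEBPG, DDIT3, DDIT4, TRIB3 and STC2, all lower. For dual knockdown they were QARS1, WARS1 and PYCR1 (higher) and TARS1, ALDH18A1, CTH, ATF5, CEBPG, DDIT3, TRIB3 and CHAC1 (lower).

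**Figure D5:**
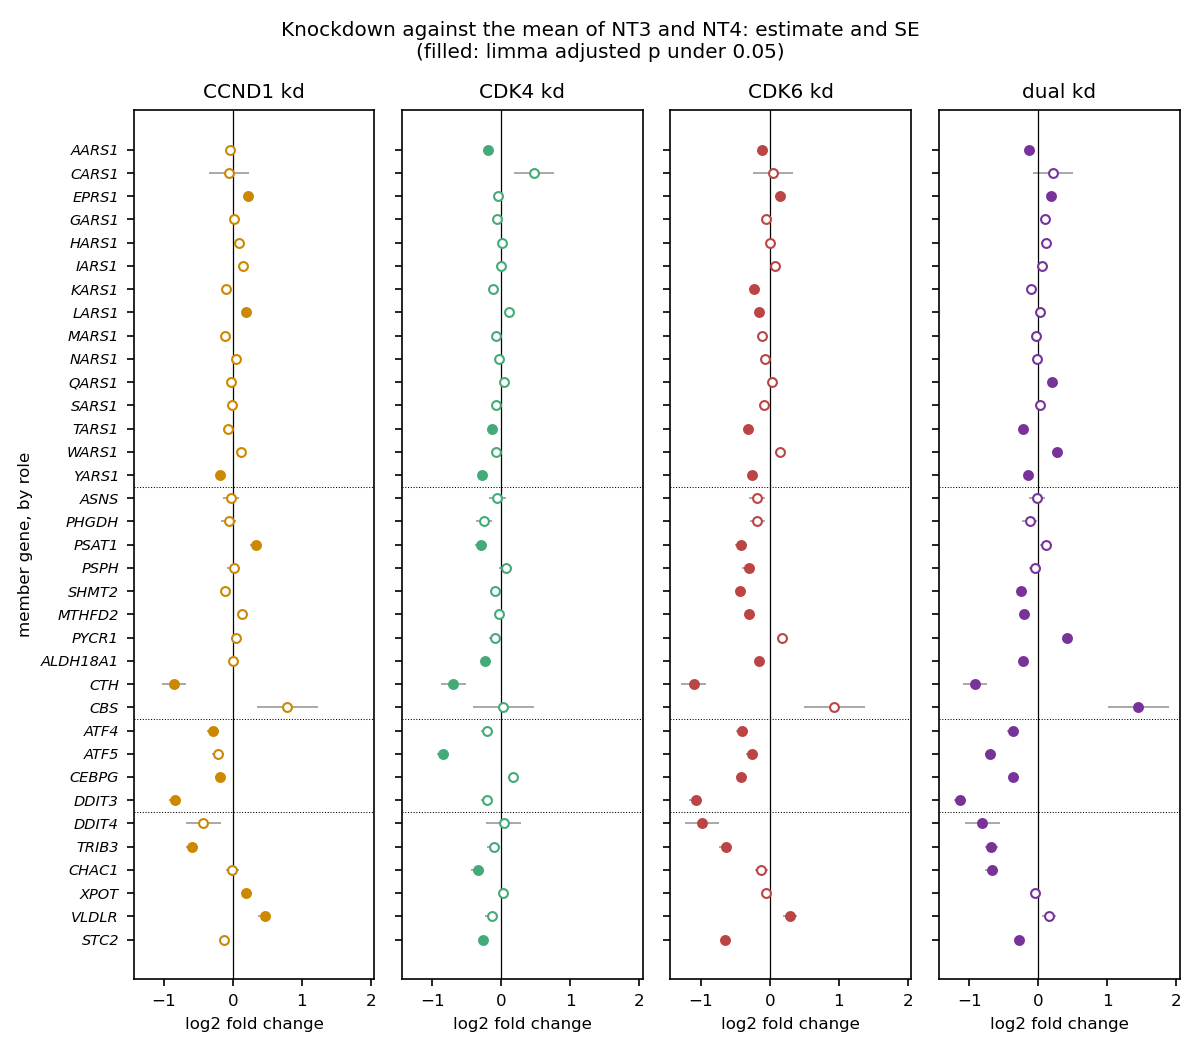
Log2 fold change of 35 members (VARS1 is left out for its low reads) in each knockdown against the mean of both controls, with SE bars and filled points where the adjusted p is under 0.05. DDIT3, TRIB3 and CTH lie to the left in CCND1, CDK6 and dual knockdown, and ATF5 lies farthest left in CDK4 knockdown.

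The 2 kinases were compared directly, without the controls. In CDK6 against CDK4 knockdown, 10 members were lower and 5 higher, beside 17.3% lower and 17.5% higher of all tested genes. Among called members the largest differences were DDIT4 (-1.01, SE 0.29, adjusted p = 0.00879), DDIT3 (-0.87, SE 0.10, adjusted p = 9.93e-07) and CEBPG (-0.58, SE 0.0712, adjusted p = 1.44e-06), all lower with CDK6 siRNA, and ATF5 (0.58, SE 0.099, adjusted p = 7.88e-05), which was lower with CDK4 siRNA. For DDIT3, CEBPG and ATF5 the libraries given above did not overlap between the arms, and their calls were kept in every alternative. The DDIT4 call was lost without CDK4 replicate 2 or CDK6 replicate 1 (adjusted p up to 0.0723). TRIB3 (-0.53), STC2 (-0.39), SHMT2 (-0.34) and MTHFD2 (-0.26) were also lower with CDK6 siRNA. For ATF4 the difference was -0.19 (SE 0.0962, adjusted p = 0.127), without a call.

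Adding CDK4 siRNA to CDK6 siRNA moved few members. In dual against CDK6 knockdown 3 members were higher and 2 lower, beside 6.05% and 6.94% of all tested genes, so the 13.9% called was near the 13% of all genes. PSAT1 (0.54, SE 0.10, adjusted p = 0.00115) and STC2 (0.37, SE 0.0678, adjusted p = 0.000759) were higher in the dual knockdown, and CHAC1 (-0.55, SE 0.11, adjusted p = 0.00123) and ATF5 (-0.43, SE 0.099, adjusted p = 0.00487) were lower. These 4 calls were kept in every alternative. The fifth, LARS1 (0.18, SE 0.0595, adjusted p = 0.0492), was lost in 8 of 15 alternatives, among them without CDK6 replicates 2 or 3 or any 1 dual library (adjusted p up to 0.227).

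In dual against CDK4 knockdown 7 members were higher and 5 lower, beside 15.8% and 14.8% of all tested genes, or 33.3% called beside 30.6%. DDIT3 (-0.93, SE 0.10, adjusted p = 4.46e-07), TRIB3 (-0.57, SE 0.10, adjusted p = 0.000227) and CEBPG (-0.52, SE 0.0712, adjusted p = 6.59e-06) were lower in the dual knockdown, and PYCR1 (0.51, SE 0.0879, adjusted p = 0.000108) was higher, and these calls were kept in every alternative. CBS (1.42, SE 0.51, adjusted p = 0.0397) was higher and DDIT4 (-0.84, SE 0.29, adjusted p = 0.0316) lower, with weaker support. The CBS call was lost without CDK4 replicate 2 or any 1 dual library, and the DDIT4 call without CDK4 replicates 1 or 2 or dual replicates 1 or 2 (adjusted p up to 0.274 and 0.18).

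Whether CDK4 siRNA acted differently in cells with CDK6 siRNA than in controls was tested as an interaction, which is 0 when both single effects add up to the dual effect. In it 4 members were higher than the sum and 0 lower, beside 2.63% higher and 3.71% lower (6.35% called) of all tested genes. At an unadjusted p under 0.05, 13 members were higher and 0 lower, and edgeR and DESeq2 each called 5 higher and 0 lower. Of all tested genes, edgeR called 765 and DESeq2 996 in either direction, and the count at the unadjusted p was not made. All members were read from the same libraries, so their directions are not independent of each other. The 4 called by limma were PSAT1 (0.83, SE 0.14, adjusted p = 0.000536), STC2 (0.63, SE 0.0897, adjusted p = 0.000112), YARS1 (0.39, SE 0.0684, adjusted p = 0.00103) and TARS1 (0.24, SE 0.0647, adjusted p = 0.0313). PSAT1 and YARS1 were kept in every alternative. STC2 was lost against NT4 alone (adjusted p = 0.0886), and TARS1 in 10 of 26 alternatives, among them against NT4 alone and without NT4 replicate 2, CDK4 replicates 2 or 3, CDK6 replicates 1 or 3, or dual replicates 1 or 3 (adjusted p up to 0.205). The number of members called was 9 without NT3 replicate 2 or 3, 11 against NT3 alone and 2 against NT4 alone.

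Genes around the pathway that are not members were read from lists in the same way. Of 10 amino acid transporters, 8 were lower and 1 higher in senescent controls, 6 lower and 2 higher in CDK6 knockdown, and 2 lower and 4 higher in dual knockdown. These are 90%, 80% and 60% called, beside 68.6%, 41.9% and 44% of all genes. SLC3A2, the shared heavy chain of several transporters, was the 1 that rose with senescence (0.56, adjusted p = 9.44e-08), and it fell with CCND1 (-0.70), CDK6 (-0.97) and dual knockdown (-0.68). Its light chain SLC7A5 fell with senescence (-0.72) and CDK6 knockdown (-0.61). Of 12 further ATF4 targets tested, 4 rose and 5 fell with senescence, and 1 rose and 7 fell with CDK6 knockdown (75% and 66.7% called, beside 68.6% and 41.9% of all genes). GDF15, a stress cytokine, had a log2 fold change of 4.81 with senescence and -1.09, -1.72 and -1.66 with CCND1, CDK6 and dual knockdown. ATF3, a stress-induced factor, had 2.78, -0.90, -1.37 and -1.68 in the same order. In CDK4 knockdown neither had a call (adjusted p = 0.947 and 0.096). Of 8 tested genes of eIF2 alpha control, 3 rose and 2 fell with senescence (62.5% called, beside 68.6% of all genes), 2 rose and 4 fell with CDK6 (75%, beside 41.9%), and 3 rose and 4 fell with dual knockdown (87.5%, beside 44%). PPP1R15A, the stress-induced subunit of the eIF2 alpha phosphatase, rose with senescence (1.12) and fell with CCND1 (-0.80), CDK6 (-0.97) and dual knockdown (-0.97), and its constitutive counterpart PPP1R15B had a log2 fold change of -0.83 with CDK6 knockdown. The double-stranded RNA kinase EIF2AK2 rose with senescence (0.97) and fell in dual knockdown (-0.89). GCN1, an activator of the kinase GCN2, fell with senescence (-0.52) and rose with CDK6 (0.45) and dual knockdown (0.48).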

How the data were processed

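RNA sequencing of 21 IMR90 libraries was available as 1 deposited table of expression signal, called normalised counts in the file header, with 16383 genes listed by Entrez ID. In the deposited signal each value is a whole multiple of a step of its library, so the authors had divided read counts by 1 size factor per library, and 100% of values returned whole reads within 0.01. The submitters' processing notes name Trimmomatic 0.38.1, FastQC 0.74, HISAT2 2.2.1, featureCounts 2.0.3, DESeq2 2.11.40.8 and MultiQC, and the build hg38, without their settings. Depth was 12892442 to 21822152 reads per library, counted over listed genes only.

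Tests covered the 11579 genes that reached a signal of 10 in 3 or more libraries. After adding a pseudocount of 1, log2 signals entered limma 3.58.1 (R 4.3.3), with a mean per group and a variance trend, over all 7 groups. Benjamini-Hochberg adjustment of the two-sided p-values ran over all tested genes in each of 10 comparisons, and called means an adjusted p under 0.05. Columns name groups and not replicates, so replicate numbers here follow column order and are names only. Pairs of libraries of a group differed by 2.89 to 59.1 times the counting noise (chi-square per degree of freedom), the 2 highest values being pairs with NT3 replicate 3, so none were merged. The alternatives tried were a pseudocount of 0.1 or 10, a filter left off or set at a mean of 100, median centring, edgeR 4.0.16 and DESeq2 1.42.0 on recovered reads, fits on the compared groups only, each control alone, each library left out, and a replicate block added after seeing the data. The limma script was tested on simulated data.

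Members and lists were chosen with earlier results of these data known. Any member could be named. Values in every library were given for ATF4, ASNS, PHGDH, DDIT3, TRIB3 and CHAC1 and for up to 4 members past the threshold with the largest change in each comparison. Other lists gave at most 4 such genes. The rule allowed promoters of at most 6 members, and the 10 short motif sites are shown in their place, a change made after the matches were seen. Promoter windows came from RefSeq (GRCh38.p14) and exon lengths and overlaps from GENCODE 44. The siRNA dose is that of the labels, which do not say whether the dual knockdown received it for each siRNA. Control names are those of the sample titles, and the series text uses other numbers for them.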

Additional observations from a re-analysis of the deposited data

Results flagged for a closer look

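For 4 members the effect of CDK4 siRNA differed between cells with and without CDK6 siRNA, by limma's interaction term. For PSAT1 the difference was 0.83 on the log2 scale (adjusted p = 0.000536), from -0.29 against controls to 0.54 on top of CDK6 knockdown. For STC2 it was 0.63 (adjusted p = 0.000112), from -0.26 to 0.37, and against NT4 alone it was 0.30 with an adjusted p of 0.0886. YARS1 gave 0.39 (adjusted p = 0.00103), from -0.27 to 0.11. TARS1 gave 0.24 (adjusted p = 0.0313), from -0.14 to 0.09, and was lost in 10 of 26 alternatives (adjusted p up to 0.205). Against the mean of both controls the first effect was negative and the second positive in all 4, but for STC2 the first was 0.065 against NT4 alone. The second effect alone was a call for PSAT1 and STC2 and not for YARS1 and TARS1.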

How the results depend on the processing

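The 141 member results with a call were refitted in 2575 alternative runs, of which 2367 kept the call and direction, 206 lost the call and 2 reversed. In every alternative run, 80 of the 141 kept theirs. Of 219 member results without a call, 117 of 4035 runs gained one. The reversals were all of STC2 against NT4 alone, where the log2 fold change was 0.19 in CCND1, 0.065 in CDK4 and 0.039 in dual knockdown, and the first of these had no call to begin with; the cause was not tested. With only the compared groups in the fit, fewer libraries give the spread, and the members called were 1 for NT4 against NT3, 6 for CCND1 and 5 for CDK4 knockdown. Against NT3 alone 14 were called for CDK4 knockdown and 11 for the interaction, and against NT4 alone 2 for the interaction. With each library left out in turn, the members called ranged from 29 to 34 with senescence, 6 to 15 for NT4 against NT3, 9 to 14 for CCND1, 5 to 12 for CDK4, 15 to 24 for CDK6 and 18 to 23 for dual knockdown, 10 to 15 for CDK6 against CDK4, 4 to 7 for dual against CDK6, 8 to 10 for dual against CDK4, and 3 to 9 for the interaction. Of all tested genes, the fit on the compared groups called 955 in place of 3216 for NT4 against NT3, 2269 in place of 3594 for CCND1, 787 in place of 1854 for CDK4, 2434 in place of 1504 for dual against CDK6 and 394 in place of 735 for the interaction. Against NT3 alone the count was 2962 for CDK4 and 1899 for the interaction, and against NT4 alone 2235 for CCND1 and 455 for the interaction. Without 1 library it fell as low as 2254 for NT4 against NT3, 1061 for CDK4, 937 for dual against CDK6 and 442 for the interaction. The count for the interaction also rose to 1436.

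The columns carry no replicate numbers, so the planned block on the numbers in the labels could not be fitted. A replicate block was instead set, after seeing the data, on 3 runs of successive codes in the column headers, whose meaning is not given, for the irradiated libraries. It called 11 members for NT4 against NT3, 12 for CCND1, 9 for CDK4, 20 for CDK6 and 20 for dual knockdown, 15 for CDK6 against CDK4, 4 for dual against CDK6, 9 for dual against CDK4 and 3 for the interaction. Of all tested genes the block called 2999, 3389, 1662, 4674, 4859, 3896, 1306, 3291 and 551 in the same order. Without the block these counts were 3216, 3594, 1854, 4853, 5094, 4032, 1504, 3538 and 735. Deviations within a run correlated at medians of 0.0437, 0.0168 and 0.0445, against -0.0166 between runs, and 13 of 18 libraries correlated best with their own run. Low reads limit VARS1, CARS1, CBS and CTH, and alternatives were run for the members only.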

Other observations

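The mitochondrial tRNA synthetases are encoded by a separate set of nuclear genes, of which 16 were tested. In senescent controls 8 were lower and 1 higher, which is 56.2% called beside 68.6% of all genes. Among those lower was the asparaginyl enzyme NARS2 (-0.97, adjusted p = 4.73e-07 in limma). In CDK6 knockdown 6 were lower and 4 higher (62.5% called, beside 41.9% of all genes). The leucyl enzyme LARS2 was at -0.90 with CDK6 knockdown and -0.75 with dual knockdown (adjusted p = 8.43e-09 and 7.91e-08), whereas the arginyl enzyme RARS2 was at 0.49 and 0.43, also past the threshold.

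Of 14 genes for protein folding in the endoplasmic reticulum, 3 were higher and 7 lower in senescent controls, 10 were lower in CDK6 knockdown, and 9 were lower and 1 higher in dual knockdown. That is 71.4% called in each, beside 68.6%, 41.9% and 44% of all genes. DNAJB9, a cochaperone, had a log2 fold change of 2.02 with senescence (adjusted p = 2.18e-16) and -0.48, -0.42, -0.55 and -0.59 with CCND1, CDK4, CDK6 and dual knockdown, all past the threshold. HYOU1, a chaperone, was at -0.59 with CDK6 knockdown (adjusted p = 3.34e-09) and had no call for senescence (adjusted p = 0.291). Among 8 tested serine, one-carbon and proline genes that are not members, the cytosolic SHMT1 was at -2.34 with senescence (adjusted p = 3.81e-12), -0.77 with CDK6 and -1.06 with dual knockdown.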
